A study of Drosophila melanogaster with 6 samples.

Results

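Genes for eggshell and yolk proteins were followed in whole Drosophila melanogaster embryos mutant for ribbon (rib), which encodes a BTB-domain transcription regulator that shapes tubular organs. The set has 8 listed genes, and every probe set (a group of short array probes read as 1 value) that the platform annotation gives to exactly 1 of them was taken. That gave 9 probe sets for 7 genes, out of 18769 tested probe sets and 11982 genes with a probe set of their own. clos had 3 probe sets, and Yp1, Yp2, Yp3, Vm26Aa, Vm34Ca and Cp36 had 1 each. Vm26Ab was not analysed here. The set was put together with earlier results of the same comparison known, in which clos was lower and Yp3 higher in the mutants. Differences between the groups are therefore given for these genes as a description, without a test.

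The rib mutant group carried the alleles rib1 and ribP7 over each other, and the wild-type group was Oregon R, with 3 independent embryo collections and 3 Affymetrix Drosophila Genome 2.0 arrays in each group. Embryos of both groups were at stages 11 to 16, collected over 8 h and aged for 11 h before an embryo sorter picked them. What sex or exact age the embryos of a collection had is not given in the labels. Every value is an average over many tissues and ages, so fewer cells of a type and less RNA per cell cannot be told apart. Loss of rib and the strain background of each group cannot be told apart in this design either.

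The fly eggshell is built in the adult ovary by the follicle cells around the oocyte, as an inner vitelline membrane and an outer chorion. Yolk proteins are made in the adult female by the fat body and the follicle cells, are taken into the oocyte through a receptor, and are broken down by the embryo as food. In flies the yolk protein genes are a textbook case of sex-specific control, since the doublesex (dsx) protein acts on their enhancers. The embryo receives both eggshell and yolk as finished protein.

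The rib probe set measured 13.87, 13.93 and 13.78 log2 units in the mutants, against 13.21, 13.28 and 12.69 in wild type, and since the labels do not say what the alleles do to its RNA, this does not check the genotypes. Added hybridization controls averaged 10.13 to 10.28 in the mutant arrays and 10.38 to 10.78 in the wild-type arrays. Array medians lay between 5.51 and 5.56 log2 units in all 6 arrays. The mutant arrays were more alike than the wild-type arrays: the differences between arrays of 1 group had SDs of 0.209 to 0.222 log2 units among mutant arrays and 0.402 to 0.629 among wild-type arrays. Over all tested probe sets, limma called 8.87% at an adjusted p below 0.05, of which the mutants were higher for 5.54% and lower for 3.32% of all probe sets. That count was 1664 probe sets, 1040 higher and 624 lower, whereas scaling on hybridization controls gave 2917 higher and 285 lower. It was 2745 (14.6%) with the replicate number as a block, 621, 603 and 607 without mutant replicates 1, 2 and 3, 3674 without wild-type replicate 1 and 891 without wild-type replicate 2.

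To show where genes with little or no expression lie on this scale, 125 probe sets of odorant and gustatory receptor genes were read, which embryos were taken to mostly lack. Averaged over the arrays they spanned 3.75 to 5.61 log2 units, with a median of 4.52. On single arrays the brightest of them, used as a mark below, read 5.53 to 6.15, against a 95th percentile of 5.10 to 5.51. Probe sets differ in how strongly they bind, so the chemoreceptor range is a guide to background and not a detection limit.

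clos (closca) encodes a protein of the oocyte that enters the vitelline membrane and is needed for its integrity and for Torso signalling at the embryo's ends. Its brightest probe set measured 5.10, 5.35 and 5.31 log2 units in the 3 mutant arrays, against 9.92, 9.94 and 9.60 in the 3 wild-type arrays. All mutant values were low and the groups lay far apart. The mean was 5.25 ± 0.13 in the mutants and 9.82 ± 0.19 in wild type (SD, n = 3 each), a difference of −4.57 log2 units (SE 0.13), or 23.7-fold. In wild type this probe set stood at percentile 87.6 of all probe sets, and in the mutants at percentile 44.5.

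The second probe set of clos gave a smaller difference in the same direction. It measured 5.39, 5.46 and 5.43 log2 units in the mutants, against 7.23, 7.30 and 7.29 in wild type. The difference was −1.85 (SE 0.07), or 3.60-fold, with every mutant value below every wild-type value. The wild-type values of this probe set lay within 0.0740 log2 units of each other, and the mutant values within 0.0662.

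The third probe set of clos was dim in every array. It measured 4.32, 4.54 and 4.38 log2 units in the mutants, against 4.77, 4.79 and 4.55 in wild type. The groups were narrowly apart, with a difference of −0.29 (SE 0.11, 95% interval −0.55 to −0.03). On the mutant arrays, none of the 3 clos probe sets exceeded the brightest chemoreceptor probe set, whereas the first and second probe sets did so on 3 of 3 wild-type arrays. A value at background understates a fold change, so 23.7-fold and 3.60-fold are sizes on the array's scale. RefSeq lists 5 older gene models that were merged into clos, and which of them each probe set was designed for is not given in the sources used here.

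The vitelline membrane genes Vm26Aa and Vm34Ca, which encode small structural proteins of the inner eggshell layer, stayed near the array median in both groups. Vm26Aa measured 5.55, 5.82 and 5.82 log2 units in the mutants, against 5.67, 5.57 and 5.77 in wild type. Vm34Ca measured 5.69, 5.74 and 5.73 in the mutants, against 5.84, 5.63 and 6.06 in wild type. The groups overlapped for both genes. The difference was 0.06 for Vm26Aa (95% interval −0.20 to 0.33) and −0.12 for Vm34Ca (−0.42 to 0.17).

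Cp36, a major chorion protein gene that lies in the X-linked chorion cluster amplified in adult follicle cells, measured 5.41, 5.45 and 5.42 log2 units in the mutants, against 5.48, 5.53 and 5.66 in wild type. Mutant values were all slightly lower, with a difference of −0.13 (SE 0.08, 95% interval −0.32 to 0.06). Cp36 exceeded the brightest chemoreceptor probe set on none of the 6 arrays.

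Among the yolk protein genes Yp3 was higher in the mutants. It measured 7.48, 7.82 and 7.89 log2 units in the mutants, against 5.73, 5.67 and 5.58 in wild type. The groups did not overlap, and the mutant values spread more, over 0.418 log2 units against 0.157 in wild type. The mean was 7.73 ± 0.22 in the mutants and 5.66 ± 0.08 in wild type (SD, n = 3 each), a difference of 2.07 (SE 0.13), or 4.20-fold. Yp3 stood at percentile 67.8 of all probe sets in the mutants and at percentile 51.9 in wild type. It exceeded the brightest chemoreceptor probe set on 3 of 3 mutant arrays but 1 of 3 wild-type arrays, so 4.20-fold is also a size on the array's scale that background may understate.

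Yp1 and Yp2, the related yolk protein genes that neighbour each other on the X chromosome, had overlapping groups at low levels. Yp1 measured 4.07, 4.20 and 4.14 log2 units in the mutants, against 4.18, 4.38 and 4.45 in wild type, with a difference of −0.20 (95% interval −0.44 to 0.04). Its level was below the chemoreceptor median on every array. Yp2 measured 5.58, 5.68 and 5.65 in the mutants, against 5.61, 5.69 and 5.81 in wild type, with a difference of −0.07 (95% interval −0.27 to 0.14). Whether Yp3 differs from Yp1 and Yp2 in its response was not tested.

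**Figure D1:**
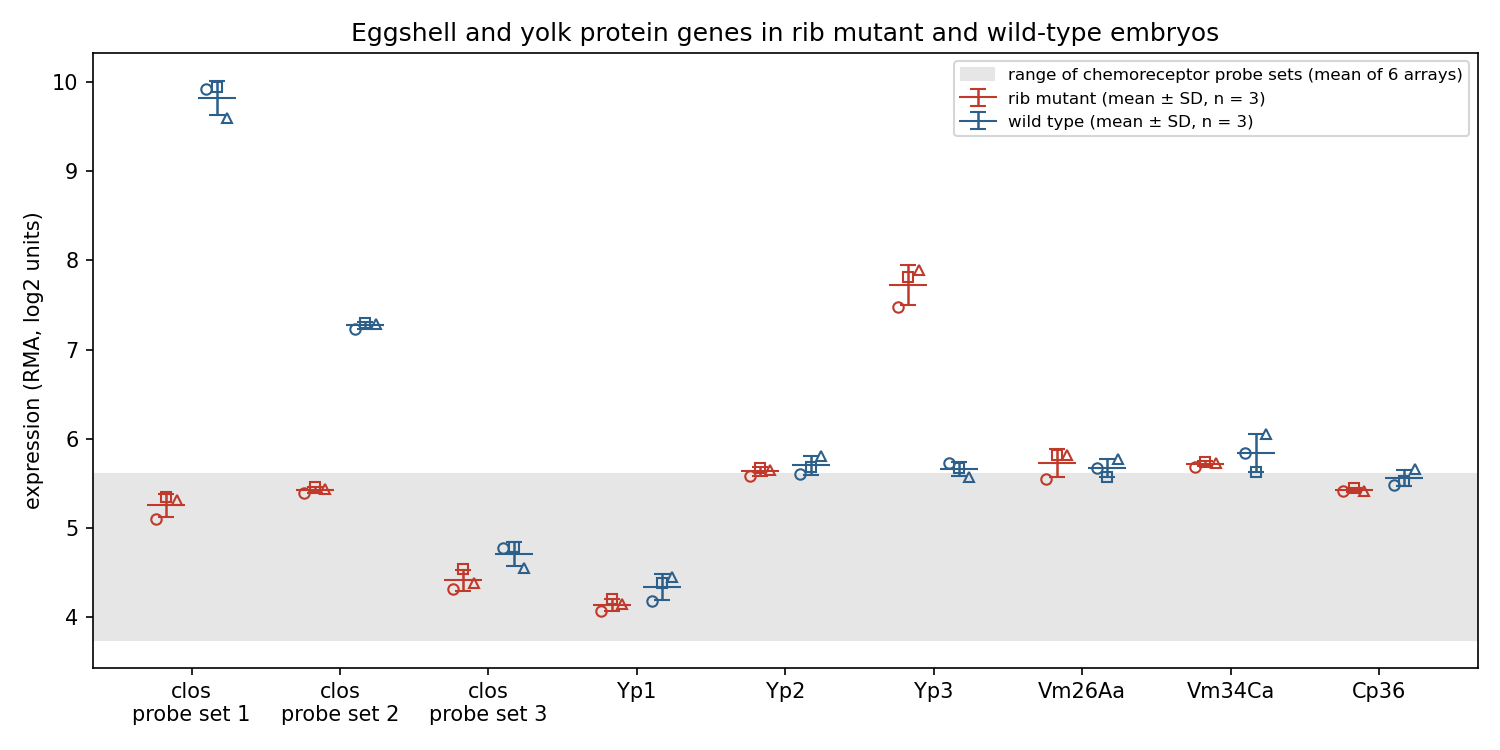
Expression (RMA, log2 units) of the 9 probe sets of eggshell and yolk protein genes, with 1 point for each array (circles, squares and triangles are replicates 1, 2 and 3), bars for mean ± SD (n = 3), and a grey band for the range of chemoreceptor probe sets. The first and second clos probe sets lie within the band in rib mutants and above it in wild type, Yp3 lies above the band in rib mutants, and the other probe sets lie near or inside the band in both groups.

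In all, 3 of the 9 probe sets differed by at least 1 log2 unit (2-fold), 2 of clos in the lower direction and the 1 of Yp3 in the higher direction, beside 6.82% of all tested probe sets. These 3 were also the ones under a limma adjusted p of 0.05, beside the 8.87% given above. The groups did not overlap for 5 of the 9, beside 35.3% of all probe sets. None of these shares is evidence about the set, because its genes were chosen on this comparison. The 6 other probe sets differed by −0.29 to 0.06, and their 95% intervals together spanned −0.55 to 0.33. Of those 6, 5 were below 0, but all 6 were above 0, at 0.09 to 0.44, when arrays were scaled on hybridization controls, which moved the median difference of all probe sets from −0.07 to 0.31. That scaling adds the same amount to the difference of every probe set, so the change of sign is not particular to these genes. The control values themselves were read after RMA.

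The name of the set is that of the genes' roles in the adult ovary. On these arrays 5 of the 7 genes stayed within the chemoreceptor range or near its upper edge in embryos of both groups. Mean levels of Yp2, Vm26Aa and Vm34Ca lay above at least 99.2% of the chemoreceptor probe sets in each group. Vm34Ca exceeded the brightest of them on 2 wild-type arrays, Vm26Aa on 1 array of each group and Yp2 on 1 wild-type array. Yp1 and Cp36 exceeded it on none of the 6 arrays, and that range is not a detection limit. The question whether other eggshell genes differ was put to a list of 26 further genes, of which 18 were measured, taking the brightest probe set of each. Their median difference was −0.13 log2 units, against −0.07 over all probe sets, and 13 of 18 lay below 0, but with scaling on hybridization controls only 1 of 18 did and the median was 0.25. Of the 18, 1 rose, 1 fell and 16 did not pass limma's adjusted test. Only torso-like (tsl), whose protein sits in the vitelline membrane at the embryo's ends, exceeded every chemoreceptor probe set on all 6 arrays.

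Fcp3C, a gene for a follicle cell protein, rose by a small amount. It measured 5.68, 5.73 and 5.81 log2 units in the mutants, against 5.40, 5.33 and 5.36 in wild type, a difference of 0.38 (SE 0.07, limma adjusted p = 0.0315), or 0.76 with scaling on hybridization controls. All its values lay near the array median. The adjusted p was 0.102, 0.134 and 0.146 without mutant replicates 1, 2 and 3, and 0.104 without wild-type replicate 2.

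Pxd, a peroxidase gene of the eggshell, fell to 4.33, 4.26 and 4.27 log2 units in the mutants, against 4.69, 4.55 and 4.64 in wild type. The difference was −0.34 (SE 0.08, limma adjusted p = 0.0475, 0.0563 with the replicate block). All 6 values lay in the chemoreceptor range. The adjusted p was 0.145, 0.191 and 0.176 without mutant replicates 1, 2 and 3, and 0.0511, 0.0877 and 0.0692 without wild-type replicates 1, 2 and 3. With scaling on hybridization controls the Pxd difference turned to 0.04. A second Pxd probe set, with means of 3.86 in the mutants and 4.21 in wild type, differed by −0.35. Its limma adjusted p was 0.0394, or 0.0497 with the replicate block. The mean of both Pxd probe sets differed by −0.34 (limma adjusted p = 0.0420).

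tsl was brighter than the rest, at 9.69, 9.47 and 9.52 log2 units in the mutants, against 9.10, 9.05 and 8.44 in wild type. Every mutant value lay above every wild-type value. The difference was 0.69 (SE 0.19), with limma adjusted p = 0.0804, or 0.0471 with the replicate block. fs(1)N (Nasrat), whose protein works beside that of clos in the vitelline membrane, measured 5.15, 5.50 and 5.40 in the mutants, against 5.27, 6.10 and 6.06 in wild type. Its groups overlapped and it did not pass (difference −0.46, limma adjusted p = 0.286). tsl and fs(1)N lie outside the rule for named genes and were picked once their values were known.

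The chorion genes Cp15, Cp16, Cp18 and Cp19, which form the second amplified cluster on chromosome 3L, differed by −0.02, −0.12, −0.28 and −0.04. Beside Cp36 on the X chromosome, Cp38 and Cp7Fc differed by −0.31 and −0.17. None of these 6 passed limma's adjusted test, where Cp18 had the lowest adjusted p, 0.0921. The vitelline membrane gene Vm32E and the palisade gene (psd), which neighbours Vm26Aa, differed by −0.14 and 0.00 and did not pass either.

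Genes that take up and break down yolk were read from a list of 17 symbols, of which 11 matched a probe set. CtsL1 also stood in the list under its older symbol Cp1. CtsB stood there only under its older symbol CtsB1, so it was not among the 11, and its difference is given below beside Yp3. Of the 11 measured, 1 rose, 1 fell and 9 did not pass limma's adjusted test, and the median difference was −0.01 (0.37 with scaling on hybridization controls). The 2 that passed were both lysosomal proteases. In this list 9 of the 11 exceeded every chemoreceptor probe set on all 6 arrays.

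CtsL1, which encodes the cysteine protease cathepsin L, rose to 13.28, 13.23 and 13.27 log2 units in the mutants, against 12.29, 11.82 and 11.66 in wild type. The difference was 1.34 (SE 0.17), or 2.52-fold, with limma adjusted p = 0.00688. Its 3 mutant values were nearly alike and above wild type.

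cathD, which encodes the aspartyl protease cathepsin D, fell to 10.48, 10.39 and 10.66 log2 units in the mutants, against 11.39, 11.84 and 12.06 in wild type. The difference was −1.25 (SE 0.18), or 2.39-fold, with limma adjusted p = 0.0123. The groups did not overlap. The adjusted p was 0.0636 and 0.0645 without mutant replicates 1 and 2, and 0.0507 without wild-type replicate 2.

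yolkless (yl), the gene of the oocyte's yolk protein receptor, was named after its values were seen. It measured 5.43, 5.93 and 5.73 log2 units in the mutants, against 6.59, 8.36 and 8.58 in wild type. Wild-type replicate 1 stood apart from the other wild-type arrays, by 1.99 log2 units at most. The difference was −2.14 (SE 0.53), with limma adjusted p = 0.0602, or 0.0232 with the replicate block. The lipoprotein gene apolpp, which encodes the main lipid carrier of the blood, had overlapping groups and did not pass (difference 1.08, limma adjusted p = 0.249).

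**Figure D2:**
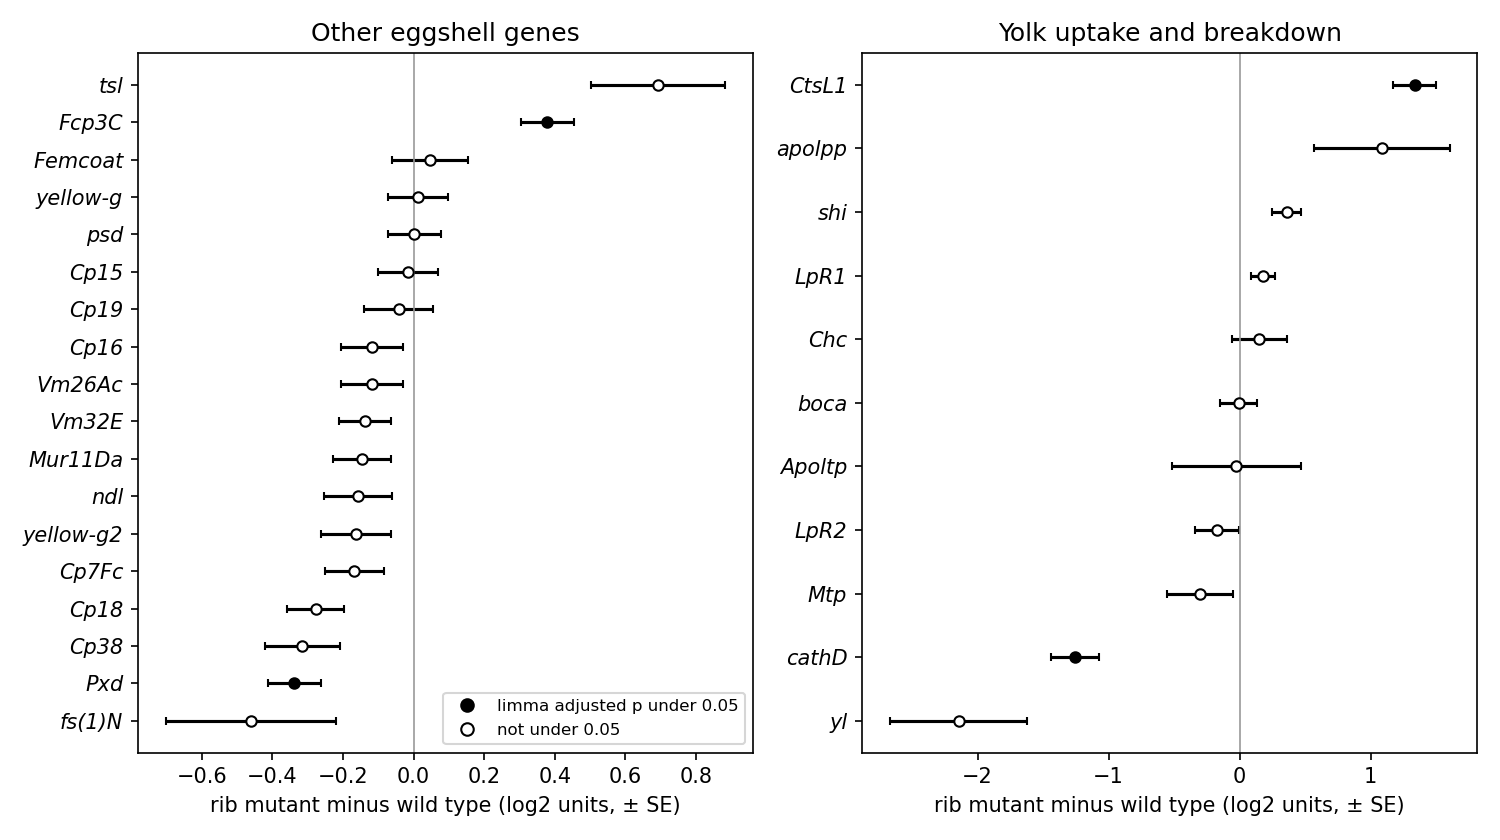
Difference in expression (rib mutant minus wild type, log2 units, ± limma SE) for 18 other eggshell genes and 11 yolk uptake and breakdown genes, with filled points under a limma adjusted p of 0.05. The scales of the panels differ, and the eggshell genes lie within −0.46 to 0.69 while yl lies at −2.14 and CtsL1 at 1.34.

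Factors known to act on yolk protein genes in adult flies were read from a list of 14, of which 13 were measured. Of these 2 rose, 1 fell and 10 did not pass limma's adjusted test, with a median difference of 0.34 (0.72 with scaling on hybridization controls). dsx, the sex-determination factor that binds yolk protein enhancers, measured 6.42, 6.56 and 6.21 log2 units in the mutants, against 4.75, 4.63 and 4.66 in wild type. It rose by 1.72 (SE 0.11), with limma adjusted p = 0.000678, and its adjusted p was at most 0.00802 with any array left out. Its second probe set gave a difference of 2.76. The wild-type values lay within the chemoreceptor range, so no fold is given for dsx. Which sex-specific form of dsx the probe sets read was not determined here.

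transformer (tra), which directs the female splicing of dsx, fell to 9.50, 9.49 and 9.46 log2 units in the mutants, against 10.07, 10.04 and 9.86 in wild type. The difference was −0.51 (SE 0.08, limma adjusted p = 0.0189). The adjusted p was 0.0885, 0.0905 and 0.0964 without mutant replicates 1, 2 and 3, 0.0718 without wild-type replicate 2, and 0.521 with scaling on hybridization controls.

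The ecdysone-response factor gene br rose by 2.76 (SE 0.63) at its brightest probe set, with limma adjusted p = 0.0492. Its wild-type values of 6.66, 6.81 and 4.51 log2 units were far apart, and its mutant values were 8.57, 9.22 and 8.47. The adjusted p was 0.146, 0.179 and 0.135 without mutant replicates 1, 2 and 3 and 0.0684 without wild-type replicate 2, and it was 0.0511 with arrays centred on their medians. The 4 other br probe sets differed by 1.55, 0.73, 0.07 and −0.05, and the mean of all br probe sets by 1.01. serpent (srp), a GATA factor gene of the fat body and blood cells, did not pass (difference −0.08, limma adjusted p = 0.692).

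Genes listed for the fat body and the follicle cells, which make yolk or eggshell proteins in adults, were set beside clos and Yp3. Whether they mark those tissues in embryos was not tested. Of 6 measured larval fat body genes 2 rose and none fell. They were the lipid synthesis genes FASN1, by 2.28 (SE 0.29, limma adjusted p = 0.00775), and Desat1, by 0.95 (SE 0.11, limma adjusted p = 0.00527). The fat body storage and secreted protein genes Lsp2, Fbp1 and Fbp2 had means of 5.36, 5.59 and 5.002 log2 units in the mutants and 5.65, 5.58 and 5.16 in wild type, near the array median or below it. The 10 measured genes listed for follicle cells included grk, a gene of the oocyte. Of these 10, bun rose by 1.32 (SE 0.23, limma adjusted p = 0.0235), none fell and 9 did not pass. With the replicate block 2 rose and 1 fell, since cas passed as higher (1.67, limma adjusted p = 0.0248) and eya as lower (−0.62, limma adjusted p = 0.0315), both named after their values were seen. A second probe set of bun differed by −0.10, and the mean of both bun probe sets by 0.61. The call on bun was lost without each mutant array, at limma adjusted p-values of 0.100, 0.104 and 0.0814. The part of these tissues in the levels of clos and Yp3 was not tested.

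Early and maternal genes were read beside clos from 2 lists, neither of which was tested as a group. Of 11 measured genes of the cellularising blastoderm 5 fell, none rose and 6 did not pass, with 7 falls and 0 rises with the replicate block, and their median difference was −0.70 (−0.32 with scaling on hybridization controls). SNCF, a zygotic gene of that stage, measured 5.42, 5.63 and 5.75 log2 units in the mutants, against 9.07, 9.01 and 9.24 in wild type. It fell by 3.50 (SE 0.12), with limma adjusted p = 7.94e-05. halo, a regulator of lipid droplet transport, measured 5.89, 5.43 and 5.998 in the mutants, against 8.32, 9.33 and 9.60 in wild type. It fell by 3.31 (SE 0.35), with limma adjusted p = 0.00390. bnk, an actin-network gene of cellularisation, fell by 1.36 (SE 0.28, limma adjusted p = 0.0367), but not without mutant replicates 1, 2 and 3 (0.132, 0.137 and 0.124) or wild-type replicate 2 (0.107).

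Among 15 measured germ plasm and maternal genes 2 fell, none rose and 13 did not pass, with 5 falls and 0 rises with the replicate block. Their median difference was −0.33 and 11 of 15 lay below 0, but with scaling on hybridization controls the median was 0.05 and 7 of 15 lay below 0. oskar (osk), which founds the germ plasm, measured 4.93, 5.78 and 5.99 log2 units in the mutants, against 6.88, 8.89 and 8.43 in wild type. It fell by 2.499 (SE 0.56) at its brightest probe set, with limma adjusted p = 0.0469. The other osk probe sets differed by −2.11 and −1.21 and did not pass (limma adjusted p = 0.0530 and 0.0596). With the replicate block these probe sets did pass (limma adjusted p = 0.00649 and 0.0130). The mean of all osk probe sets differed by −1.94 (limma adjusted p = 0.0504). png, a kinase gene of the egg-to-embryo transition, fell by 0.52 (SE 0.09, limma adjusted p = 0.0238). Both calls were lost without mutant replicates 1, 2 and 3, at limma adjusted p-values of 0.159, 0.145 and 0.113 for osk and 0.108, 0.115 and 0.0911 for png. They were also lost without wild-type replicate 2 (0.112 for osk and 0.0609 for png), and that on osk without wild-type replicate 3 (0.107). With scaling on hybridization controls the png difference was −0.14 and did not pass (limma adjusted p = 0.243).

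Within wild type these genes did not vary alike. Wild-type replicate 1 was the lowest of its group for yl, osk and halo, with ranges over the 3 arrays of 1.99, 2.01 and 1.28 log2 units. The first clos probe set ranged over 0.342 and SNCF over 0.226, and neither was lowest in wild-type replicate 1. clos and SNCF were named for their difference or likeness in this comparison, which favours genes with little spread within a group, and yl was named after its values were seen. The GAPDH control, a sign of RNA quality, gave 3' minus 5' signals of 1.60 to 1.70 log2 units in the mutant arrays, 1.72 in wild-type replicate 1, and 1.375 and 1.201 in wild-type replicates 2 and 3. Its part in these values was not tested. The part of embryo age in the group differences was not tested. Late embryonic cuticle genes had 1 rise (Cpr49Ag, by 2.81, SE 0.13, limma adjusted p = 0.000235) and no fall among 16 measured, with a median difference of −0.09 and 11 of 16 below 0. With scaling on hybridization controls the median was 0.29 and 3 of 16 lay below 0. With the replicate block 1 rose and 1 fell, the fall being Cpr49Ac (−1.14, limma adjusted p = 0.0353), named after its values were seen. Only 3 of the 16 cuticle genes exceeded every chemoreceptor probe set on all 6 arrays. These were kkv, serp and verm, whose groups overlapped. Their wild-type values ranged over 2.78, 2.18 and 2.46 log2 units, highest in wild-type replicate 1.

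The 5 named genes whose values over the 6 arrays were most like those of the brightest clos probe set were CG8837, Z600, CG31809, CG13795 and SNCF. Their Pearson correlations with clos over 6 arrays were 0.998, 0.998, 0.998, 0.997 and 0.996, among 2289 probe sets that varied by an SD of at least 0.5. Z600 (fruhstart) is a zygotic inhibitor of mitosis at gastrulation, and it averaged 4.74 ± 0.02 log2 units in the mutants and 5.97 ± 0.10 in wild type (SD, n = 3 each). Their differences ran from −1.23 for Z600 to −3.50 for SNCF. The points share arrays and the split between the groups, so such correlations describe genes that are lower in all mutant arrays with little spread.

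The 5 named genes most like Yp3 were Cyp12a4, Vmat, Ugt303A1, CG30345 and CG30148, with Pearson correlations over 6 arrays of 0.998, 0.997, 0.996, 0.996 and 0.995. Cyp12a4, a mitochondrial cytochrome P450 gene, measured 7.15, 7.63 and 7.91 log2 units in the mutants, against 5.15, 5.08 and 4.998 in wild type. Its order among the mutant arrays was that of Yp3, with mutant replicate 1 lowest. Vmat, which encodes the vesicular monoamine transporter, averaged 7.14 ± 0.18 in the mutants and 5.596 ± 0.05 in wild type (SD, n = 3 each).

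**Figure D3:**
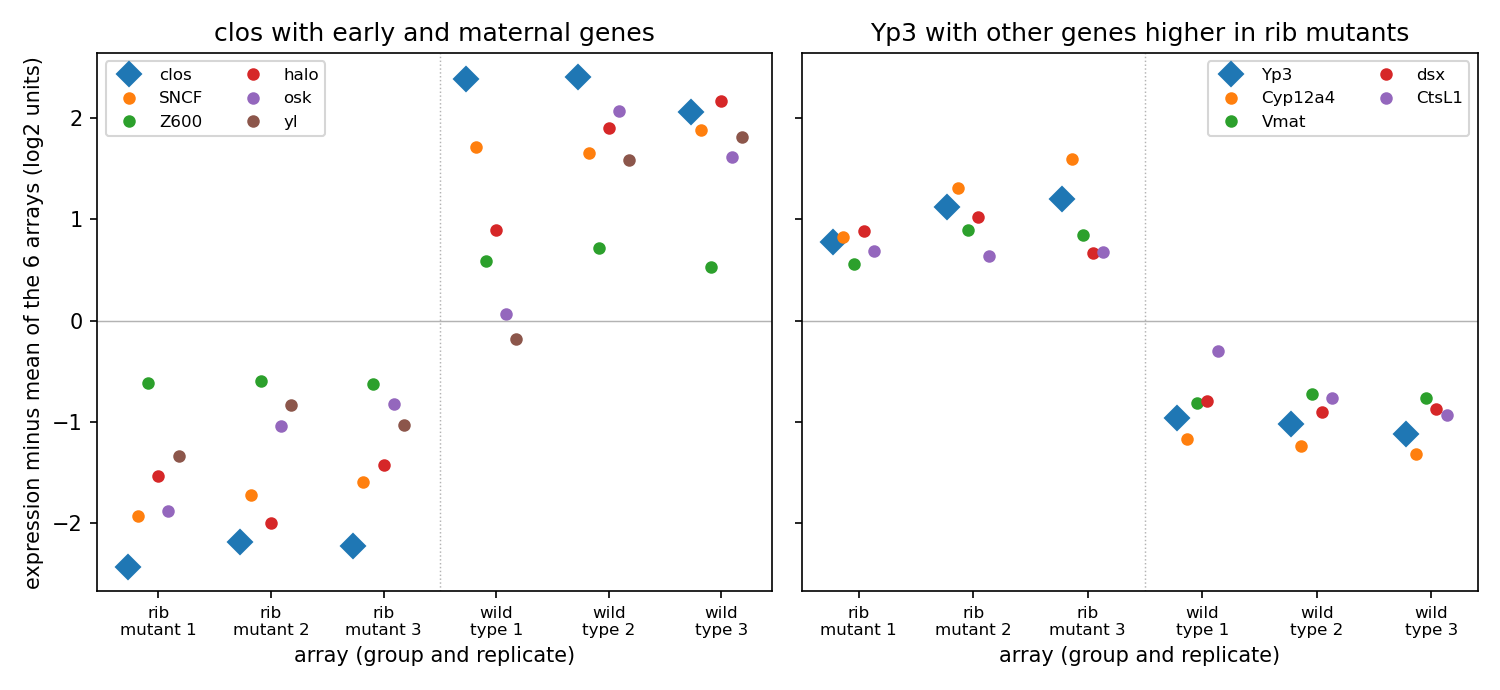
Expression minus the mean of the 6 arrays (log2 units) for clos (brightest probe set) with early and maternal genes on the left, and for Yp3 with other genes that were higher in the mutants on the right, by array, with points of 1 array set side by side. yl and osk in wild-type replicate 1 lie well below the other wild-type arrays, whereas clos, SNCF and Z600 do not.

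Genes next to clos and Yp3 on their chromosomes were read to see whether the differences extended beyond them. The 2 measured genes on each side of clos on chromosome 2R were Urod, CG12929, CG1827 and Map60, with differences of 0.16, 0.00, −0.28 and −0.02. Those beside Yp3 on the X chromosome were CG32625, Rtc1, rdgB and CtsB, with differences of −0.53, −0.39, −0.19 and 0.10. None of these 8 brightest probe sets passed limma's adjusted test, at adjusted p-values of 0.230 to 0.994. A second probe set of rdgB, a phospholipid transfer protein gene, measured 6.38, 6.50 and 6.23 log2 units in the mutants, against 5.43, 5.74 and 5.04 in wild type. That probe set, singled out once its values were known, rose by 0.96 (SE 0.19, limma adjusted p = 0.0301), and its adjusted p was 0.117, 0.129 and 0.0899 without mutant replicates 1, 2 and 3. rib itself also lies on chromosome 2R, where 12.7% of 2733 probe sets passed, against 9.10% of 2188 on the X chromosome, 9.10% to 11.5% over the X, 2L, 3L and 3R arms, and 20.7% of 82 on chromosome 4.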

How the data were processed

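The deposited unit is log2 expression for each probe set on 6 arrays, and per the submitters' processing notes it came from RMA, run in Partek. RMA makes the distributions of arrays alike, so a shift of most RNAs in 1 direction is removed. Per the labels' protocols, 100 ng of total RNA was amplified with a 3' kit and labelled with biotin. No detection calls or scan batches were used. Of 18952 probe sets, 183 controls were left out. Of the rest, 13647 had 1 gene symbol, 402 several and 4720 none here. All 9 member probe sets matched RefSeq (Release 6 plus ISO1 MT) by gene identifier.

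Groups and replicate numbers came from the titles. R 4.3.3 with limma 3.58.1 fitted all 18769 tested probe sets at once, and its two-sided p-values were adjusted over all of them by the Benjamini-Hochberg method. The fit gave the SEs and 95% intervals. It was also run on simulated data with independent arrays and the same spread in both groups. The real arrays differ from that in both ways, so the simulated run does not check these SEs and intervals. Members and gene lists were chosen with earlier results of these data known. Named genes were all members, up to 3 called genes each way from each of 8 lists with groups not overlapping (brightest probe set), and the 5 genes most correlated with clos and with Yp3.

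Same-numbered arrays deviated together from their groups, at r = 0.37, 0.57 and 0.39, so replicate numbers were also fitted as a block. The main calls, and those with an array left out, come from the fit without that block. Values with that block are printed where they alter a call or shift a count by more than 1.5 times. Some genes named by rule from the lists lost their call with an array left out. Of these, the block lowered the limma adjusted p of osk (0.00719), bnk (0.0256), br (0.0198), bun (0.0129) and cathD (0.0101). It raised that of Fcp3C (0.0491), Pxd (0.0563), tra (0.0261) and png (0.0253). The other settings tried were array centring on medians, cyclic loess, hybridization control scaling, a trended and robust prior, no dimmest 40%, a plain linear model, the mean probe set of a gene, and each array left out.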

Additional observations from a re-analysis of the deposited data

How the results depend on the processing

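Under every alternative run, the same count of 3 member probe sets differed by at least 1 log2 unit, 2 lower and 1 higher. With any array left out, the first clos probe set stayed between −4.68 and −4.49, the second between −1.87 and −1.83 and Yp3 between 1.99 and 2.20. Scaling on hybridization controls moved them to −4.19, −1.47 and 2.45. The limma count over all probe sets was 1664, against 2745 with the replicate block, 3202 with scaling on hybridization controls, 594 with the plain linear model and 603 to 3674 with 1 array left out. Of 18 other eggshell genes 2 passed, against 1 with median centring, 1 with cyclic loess, 1 with the plain linear model, 0 by limma without the dimmest 40% (4 under an unadjusted p of 0.05) and 0 to 4 with 1 array left out, where the settings with 0 by limma had 3 to 5 under an unadjusted p of 0.05. For Pxd the difference turned to 0.042 with scaling on hybridization controls. Of 11 yolk uptake and breakdown genes 2 passed, against 5 with scaling on hybridization controls, 0 with the plain linear model (4 under an unadjusted p of 0.05) and 1 to 3 with 1 array left out. Over the 6 context lists 14 genes passed, against 22 with the replicate block, 6 with the plain linear model and 6 to 23 with 1 array left out. Of 16 genes named from the lists, 5 (dsx, SNCF, halo, Desat1 and Cpr49Ag) kept their call and direction in every alternative, CtsL1 and FASN1 lost it with the plain linear model alone, and the other 9 lost it in at least 1 more. Beyond the calls given above with the replicate block, it changed no call on a named gene. The rdgB probe set was examined after seeing the data. The causes of these changes were not tested. The small number of arrays and the levels within or near the chemoreceptor range limit what can be said of Yp1, Yp2, Vm26Aa, Vm34Ca and Cp36.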
